A study of Mus musculus with 12 samples.

Results

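Levels of 34 genes of the cell cycle and of DNA replication were followed in 12 mammary gland libraries of female C57BL/6 mice, an inbred laboratory strain. The genes were taken from a list of proliferation genes and found by symbol among 55487 Ensembl gene IDs, and all 34 passed the filter on low counts, which kept 18647 genes. They comprise 12 genes that act at the entry into S phase and in replication and 22 that act from S phase to mitosis. The labels assign 6 libraries to a folic acid dose of 5 mg/kg and the other 6 to a dose of 1 mg/kg. All glands were taken at postnatal day 84, and the series describes this as 4 weeks after supplementation. The labels do not say what the mg/kg refer to, give no group without folic acid, and do not state that each library is a separate animal, so p-values measure the spread between these samples. The right thoracic fat pad was taken whole, so a library holds fat, epithelium, vessels and any lymphoid tissue of the pad.

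A cell that divides passes from G1 into S phase, when DNA is copied, and through G2 into mitosis. E2F factors switch on the genes of S phase once the retinoblastoma proteins let them go, and the genes of G2 and mitosis are switched on later by the MuvB complex with B-MYB and FOXM1. Folic acid is a synthetic folate, and folates carry the 1-carbon units that cells need to make thymidylate and purines for DNA. In the adult virgin gland few epithelial cells divide, their number changes over the oestrous cycle, and lymph nodes within a fat pad hold lymphocytes of which a share divides.

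The promoters of these genes are known for short shared motifs, and a few are shown here. Most genes of each phase were called higher with Ms4a1, a B cell gene, as described further on, while Ube2c was not. The motifs searched on both strands were CCAAT, bound by NF-Y; the cell cycle homology region (CHR), searched as TTTGAA or as TTTAAA; and E2F-type sites, searched as TTCCCGC or as TTGGCGC, then also as TTCGCGC or as TTGCCGC. Each sequence runs 5′ to 3′ on the gene's strand from 190 bases before to 30 bases after the RefSeq start on GRCm38.p6, and capitals mark the motifs, which may overlap.
Ccnb2, chr9:70421525-70421744, minus strand: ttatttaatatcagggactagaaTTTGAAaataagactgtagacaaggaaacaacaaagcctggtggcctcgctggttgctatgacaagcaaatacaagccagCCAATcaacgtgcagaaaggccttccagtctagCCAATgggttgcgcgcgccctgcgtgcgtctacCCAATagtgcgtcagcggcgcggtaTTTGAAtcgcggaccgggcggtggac
Cdk1, chr10:69352883-69353102, minus strand: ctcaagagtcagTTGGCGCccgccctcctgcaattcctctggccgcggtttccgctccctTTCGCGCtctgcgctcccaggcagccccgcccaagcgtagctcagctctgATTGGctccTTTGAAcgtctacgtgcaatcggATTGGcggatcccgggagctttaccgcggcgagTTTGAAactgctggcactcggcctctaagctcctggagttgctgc
Mki67, chr7:135716350-135716569, minus strand: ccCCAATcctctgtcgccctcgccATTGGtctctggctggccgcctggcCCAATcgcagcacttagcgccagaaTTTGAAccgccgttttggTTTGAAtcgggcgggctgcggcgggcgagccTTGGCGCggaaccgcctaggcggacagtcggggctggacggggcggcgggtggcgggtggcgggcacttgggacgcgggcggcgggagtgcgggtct
Ube2c, chr2:164769739-164769958, plus strand: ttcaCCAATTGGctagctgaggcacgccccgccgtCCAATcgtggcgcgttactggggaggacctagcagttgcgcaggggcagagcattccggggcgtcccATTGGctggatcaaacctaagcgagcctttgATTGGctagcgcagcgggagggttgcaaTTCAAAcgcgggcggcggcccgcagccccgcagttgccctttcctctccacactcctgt
Mcm5, chr8:75109319-75109538, plus strand: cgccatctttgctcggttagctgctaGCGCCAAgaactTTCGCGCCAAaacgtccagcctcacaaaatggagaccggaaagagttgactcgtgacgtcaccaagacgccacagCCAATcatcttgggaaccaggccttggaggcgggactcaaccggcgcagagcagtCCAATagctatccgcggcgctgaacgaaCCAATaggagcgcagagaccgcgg
Mcm6, chr1:128359676-128359895, minus strand: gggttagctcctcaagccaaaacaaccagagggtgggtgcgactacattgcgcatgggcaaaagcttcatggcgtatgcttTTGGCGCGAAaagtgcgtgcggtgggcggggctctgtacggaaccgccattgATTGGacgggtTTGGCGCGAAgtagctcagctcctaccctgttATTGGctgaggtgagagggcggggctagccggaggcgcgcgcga

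Ccnb2 held 3 CCAAT boxes, 33 bases apart each, and 2 CHR elements with no E2F-type site. The paired CCAAT boxes of Ccnb1, of Aurka and nearest the start of Cdk1 were 32 bases apart. In Mcm6 the E2F-type letters form overlapping pairs on opposite strands, and in Ube2c the 2 CCAAT boxes farthest from the start overlap in the same way. Over windows from 250 bases before to 50 after the start, RefSeq gave 28 promoters for 27 of the 34 genes. Of these, 78.6% held a CCAAT box, against 37.4% of all 32851 promoters, and 71.4% held a CHR element, against 27.6%. E2F-type sites were in 54.5% of the promoters of the S phase genes and 17.6% of those of the mitotic genes, against 9.57% of all. CHR elements ran the other way, with 45.5% in the S phase genes and 88.2% in the mitotic genes. These are matches of letters and not measured binding.

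Libraries held 48.2 M to 75.3 M reads assigned to genes (M, mega), of which the 2 mitochondrial rRNA genes took 39.2% to 59.5%. Levels are counts per M reads (CPM) scaled with TMM factors, which ran from 0.60 in replicate 5 at 5 mg/kg to 1.33 in replicate 1 at 1 mg/kg. Most of the 34 genes were scarce, and the least read were Birc5 with 7 reads and Plk1 with 8 reads, both in replicate 5 at 5 mg/kg. Per length of exon, in reads per kilobase and M reads (RPKM), Pcna was the highest with a mean of 7.87, followed by Mcm4 at 4.08, Mcm6 at 4.02, Mki67 at 3.24 and Mcm7 at 3.02. Kif2c was the lowest at 0.279. The levels also differed in how far they ranged over the libraries. The highest library held 14.1 times the level of the lowest for Birc5, 12.3 times for Plk1 and 9.43 times for Mki67. The same ratio was 1.89 for Ube2c, 1.93 for Ccne2 and 2.13 for Mcm7.

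**Figure D1:**
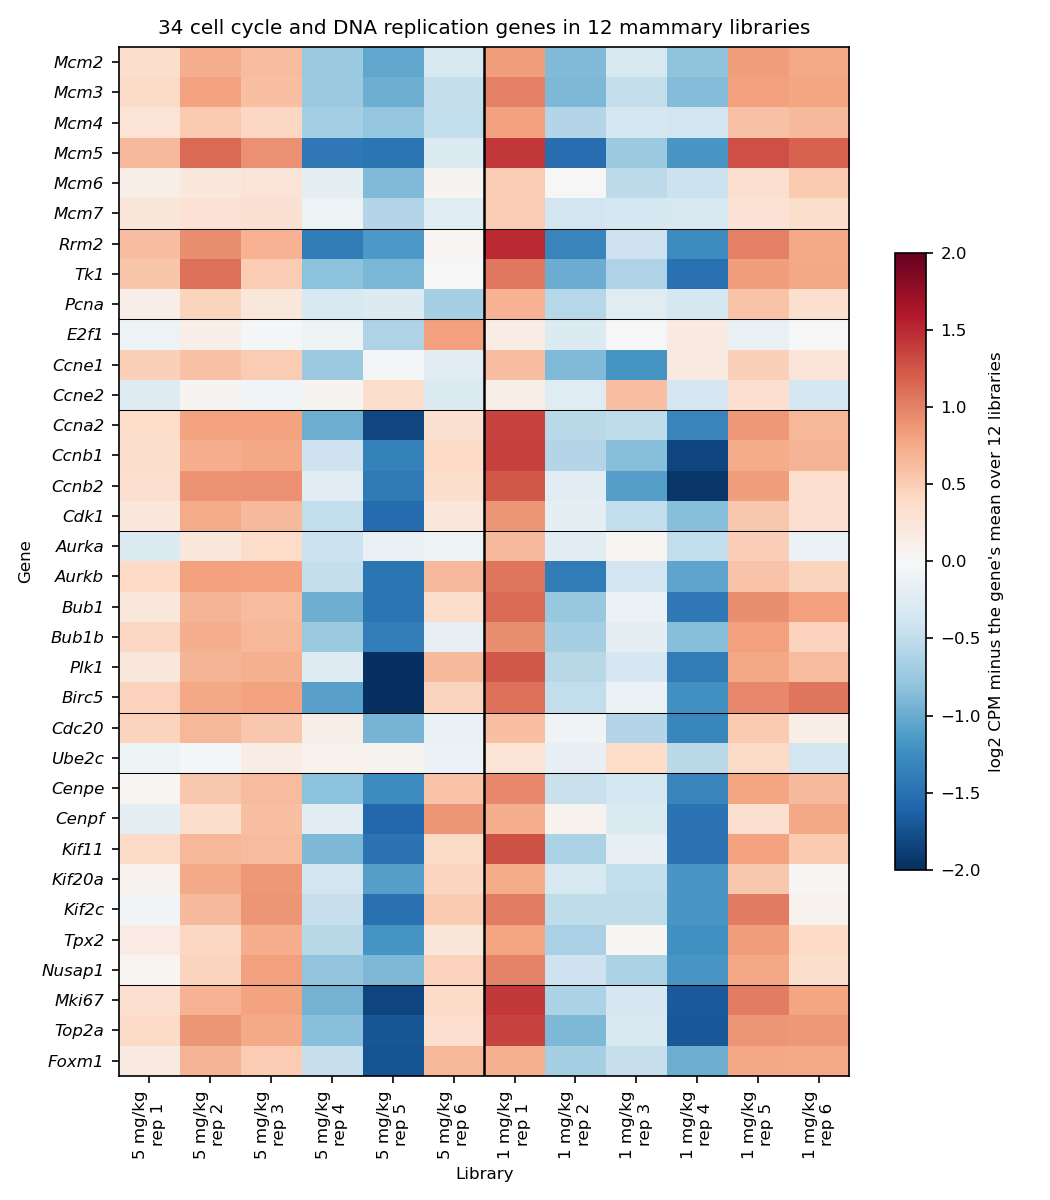
Level of each of the 34 genes (rows) in each library (columns, 5 mg/kg left of the line and 1 mg/kg right of it), as log2 CPM minus the gene's mean over the 12 libraries, with colours limited at -2 and 2. Replicate 1 at 1 mg/kg was the highest of the 12 libraries for 23 genes and replicate 5 at 5 mg/kg the lowest for 18 genes. These libraries also had the highest (1.33) and the lowest (0.60) TMM factor, and the same counts were not made over all genes.

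None of the 34 genes passed the test for a difference between 5 mg/kg and 1 mg/kg. Mki67, whose protein coats mitotic chromosomes and serves as a marker of cycling cells, ran from 7.40 through a median of 33.7 to 45.7 CPM at 5 mg/kg, against 8.18, 33.2 and 69.8 CPM at 1 mg/kg. Top2a, the topoisomerase that untangles replicated DNA, ran from 3.92 through 16.4 to 23.7 CPM at 5 mg/kg, against 3.93, 16.8 and 32.8 CPM at 1 mg/kg. In both genes the groups overlapped, the highest library was at 1 mg/kg, and each group held both high and low libraries. For Mki67, replicates 1 and 5 at 1 mg/kg, at 69.8 and 53.3 CPM, lay above every library at 5 mg/kg. By edgeR's quasi-likelihood test, the log2 fold change of Mki67 was -0.28 ± 0.53 (SE, adjusted p = 0.943) and that of Top2a -0.18 ± 0.53 (adjusted p = 0.956).

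The same held for the genes of replication. Mcm2, a subunit of the helicase that opens DNA at origins, ran from 3.37 through 7.22 to 11.4 CPM at 5 mg/kg, against 3.78, 8.63 and 12.4 CPM at 1 mg/kg. Mcm5, another subunit, ran from 2.08 through 6.82 to 12.5 CPM at 5 mg/kg, against 2.0, 8.18 and 15.3 CPM at 1 mg/kg. Pcna, the clamp that holds the polymerase on DNA, ran from 11.4 through 17.4 to 24.7 CPM at 5 mg/kg, against 12.1, 18.9 and 29.3 CPM at 1 mg/kg. In each of the 3 genes the groups overlapped and the highest library was at 1 mg/kg. Rrm2, the subunit of ribonucleotide reductase that is made in S phase, ran from 0.765 through 2.59 to 3.85 CPM at 5 mg/kg, against 0.806, 2.47 and 5.70 CPM at 1 mg/kg. Mcm4 had the smallest p of the 34 genes, with 7.93, 13.0 and 19.5 CPM at 5 mg/kg against 9.07, 15.5 and 24.0 CPM at 1 mg/kg, and its log2 fold change was -0.26 ± 0.32 (edgeR, unadjusted p = 0.433, adjusted p = 0.943).

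Among the drivers of the cycle the values lay equally close. E2f1, the transcription factor of S phase genes, ran from 1.15 through 1.68 to 3.11 CPM at 5 mg/kg, against 1.46, 1.77 and 2.0 CPM at 1 mg/kg. Ccne1, the cyclin that starts S phase with Cdk2, ran from 0.931 through 1.83 to 2.32 CPM at 5 mg/kg, against 0.681, 1.80 and 2.38 CPM at 1 mg/kg. E2f1 stood out only by its highest library, replicate 6 at 5 mg/kg, while the rest of that group lay at 1.93 CPM or less. Cdk1, the kinase of mitotic entry, ran from 0.620 through 2.08 to 3.02 CPM at 5 mg/kg, against 1.00, 1.92 and 3.31 CPM at 1 mg/kg. Ccnb1, the cyclin that activates it, ran from 0.465 through 1.53 to 2.02 CPM at 5 mg/kg, against 0.334, 1.34 and 3.06 CPM at 1 mg/kg. Foxm1, a factor for the genes of mitosis, ran from 0.443 through 1.86 to 2.34 CPM at 5 mg/kg, against 0.743, 1.73 and 2.48 CPM at 1 mg/kg. For all 3 the groups overlapped.

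By edgeR, 0 of the 34 genes passed an adjusted p of 0.05, and so did 0% of the 18647 genes tested. At an unadjusted p under 0.05 there were 0 of the 34 and 1.93% of all genes, and DESeq2 called 0 genes as well, with 776 at an unadjusted p under 0.05. The log2 fold change was positive in 7 and negative in 27 genes, while 47.2% of all genes had a positive one, with a median of -0.10, against -0.018 over all genes. It ran from -0.29 for Mcm5 to 0.23 for Kif20a, a motor of cell division, and the median turned to 0.014 without replicate 4 at 5 mg/kg, 0.064 without replicate 5 at 5 mg/kg and 0.10 without replicate 1 at 1 mg/kg, while it was -0.25 without replicate 4 at 1 mg/kg. The 95% interval reached a median of 0.90 to either side of the log2 fold change, against 0.53 over all genes. It was narrowest for Ube2c, at 0.39, and widest for Mcm5, at 1.33, and a difference within a gene's own interval was not detectable here. No gene of the 34 had groups that did not overlap, which 0.0429% of all genes had.

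**Figure D2:**
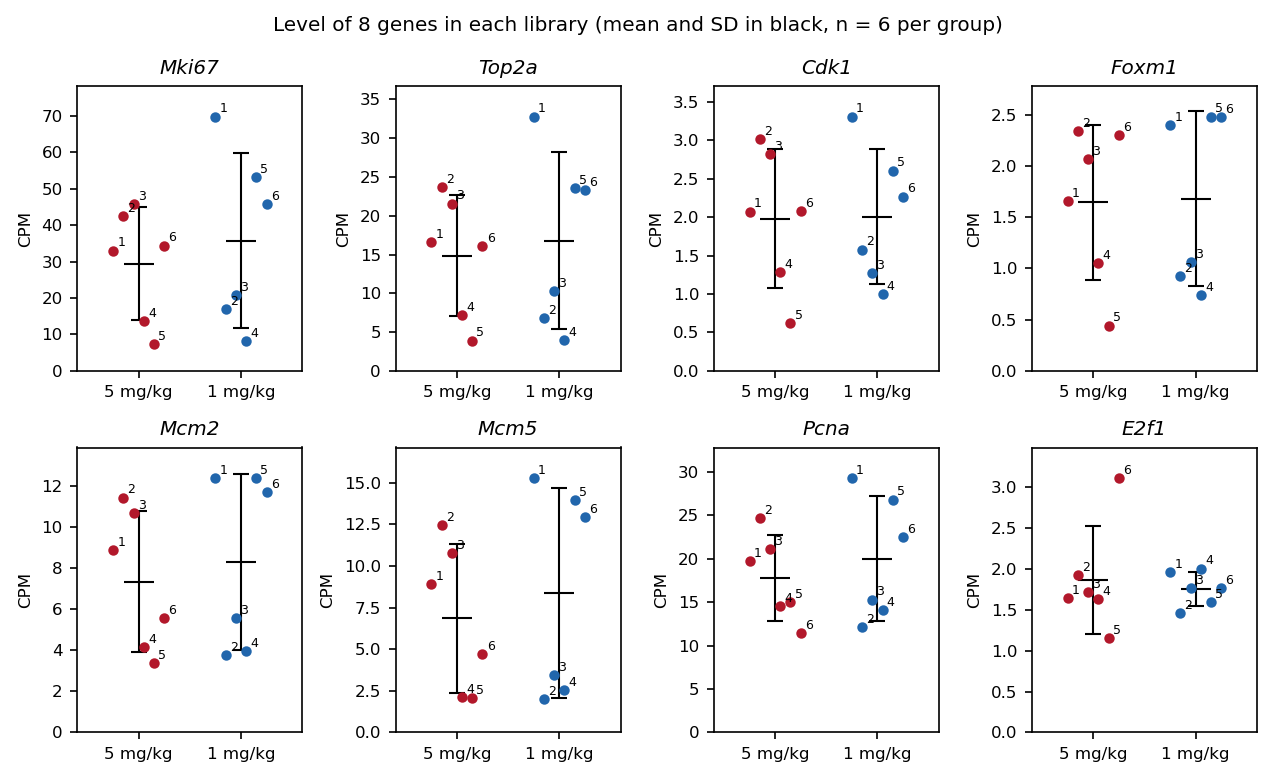
CPM of 8 genes in each library, with 5 mg/kg in red on the left and 1 mg/kg in blue on the right. Numbers are replicates, and black bars show the mean and SD (n = 6 each). The groups overlap in every panel, and each group holds libraries high and low in Mki67, Top2a, Mcm2 and Mcm5.

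The spread within each group went with the amount of lymphoid RNA. Ms4a1, the gene of the B cell antigen CD20, was at 49.0, 104, 94.9, 0.703, 1.37 and 0.482 CPM in replicates 1 to 6 at 5 mg/kg, and at 152, 0.554, 17.7, 0.577, 125 and 140 CPM in replicates 1 to 6 at 1 mg/kg. Each group thus held 3 libraries with 49.0 CPM or more, and 5 libraries lay at 1.37 CPM or less, 3 of them at 5 mg/kg. Epcam, an adhesion molecule of epithelium, ranged less, with 20.3 to 66.9 CPM at 5 mg/kg against 13.4 to 88.4 CPM at 1 mg/kg. No difference between the groups was detected for either by an exact two-sided permutation test on log2 levels (p = 0.669 for Ms4a1 and p = 0.95 for Epcam, n = 6 each). The mean log2 level at 5 mg/kg minus that at 1 mg/kg was -1.0 for Ms4a1 and 0.031 for Epcam. The 10 B cell genes summed to 5.35 to 662 CPM at 5 mg/kg and 4.06 to 887 CPM at 1 mg/kg, and the 10 T cell genes to 4.63 to 261 CPM and 5.69 to 405 CPM. The 12 luminal genes summed to 168 to 518 CPM at 5 mg/kg and 116 to 748 CPM at 1 mg/kg. In whole tissue, fewer cells of a type and less RNA per cell cannot be told apart.

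Of the 34 genes, 27 were higher where Ms4a1 was higher and 0 were lower. This was read from a model with dose, log2 Ms4a1 and log2 Epcam as terms, in which a slope is the log2 change of a gene for each doubling of the marker. By edgeR's quasi-likelihood test, 23.3% of all 18645 genes left after taking out the markers were called higher with Ms4a1 and 18.1% lower, at an adjusted p under 0.05. With scaling by library size alone these shares were 48.2% and 1.64%, the median slope of all genes was 0.062, and 33 of the 34 genes were called higher and 0 lower. In the TMM fit the 27 genes were 9 of the 12 of S phase and 18 of the 22 of mitosis. The median slope was 0.18, against -0.00093 over all genes. The 6 libraries with the most Ms4a1 had TMM factors of 0.94 to 1.33, against 0.60 to 1.22 in the other 6. Their mitochondrial rRNA genes took 39.2% to 51.5% of gene reads, against 41.9% to 59.5%. The part of these differences in the slopes was not tested.

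All 6 Mcm genes rose with Ms4a1. Mcm5 had the steepest slope of the 34 genes, at 0.32 ± 0.050 (SE, edgeR adjusted p = 0.000538), and Mcm3 and Mcm4 had the smallest p, with slopes of 0.23 ± 0.027 (adjusted p = 5.83e-05) and 0.17 ± 0.020 (adjusted p = 5.8e-05). In CPM, Mcm3 ran from 4.30 through 8.49 to 14.7 at 5 mg/kg, against 4.52, 10.3 and 17.0 at 1 mg/kg. In Mcm3 as in Mcm5 the libraries above the middle of each group were the 3 with the most Ms4a1. The slope was 0.21 for Mcm2, 0.11 for Mcm6 and 0.11 for Mcm7. The genes of nucleotide supply rose as well, with 0.27 ± 0.052 for Rrm2 (edgeR adjusted p = 0.0022) and 0.24 ± 0.046 for Tk1, the thymidine kinase of S phase (adjusted p = 0.00203). For Pcna the slope was 0.12 ± 0.020 (edgeR adjusted p = 0.00112).

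Of the genes that start S phase, none of 3 passed. E2f1 had a slope of 0.012 ± 0.039 (edgeR adjusted p = 0.820) and was called in 0 of 30 alternative fits. Ccne1 was at 0.11 ± 0.047 (edgeR adjusted p = 0.0698) and passed in 6 of 30 alternative fits, and Ccne2, its close relative, was at -0.028 ± 0.026 (adjusted p = 0.395). Ccne2 ran from 2.67 through 3.29 to 4.19 CPM at 5 mg/kg, against 2.58, 3.17 and 4.98 CPM at 1 mg/kg. The highest were replicate 5 at 5 mg/kg, with 1.37 CPM of Ms4a1, and replicate 3 at 1 mg/kg, with 17.7 CPM. The annotation shares 17.4% of the exon bases of Ccne2 with Ints8 on the other strand, and reads of the 2 genes cannot be told apart without strand.

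Among the mitotic genes all 4 cyclins and kinases of G2 rose, with slopes of 0.25 for Ccna2, 0.24 for Ccnb1, 0.23 for Ccnb2 and 0.19 for Cdk1. Mki67 was at 0.25 ± 0.068 (edgeR adjusted p = 0.0131), Top2a at 0.27 ± 0.062 (adjusted p = 0.00647) and Foxm1 at 0.17 ± 0.063 (adjusted p = 0.0448). The call of Foxm1 held in 3 of the 12 fits that each left out 1 library. Of the kinases and checkpoint genes 5 of 6 rose, among them Bub1b, which holds back anaphase until chromosomes are attached, at 0.21 ± 0.037 (edgeR adjusted p = 0.000984), and Birc5, a partner of Aurora B, at 0.25 ± 0.072 (adjusted p = 0.0164). The exception was Aurka, the spindle pole kinase, at 0.063 ± 0.031 (edgeR adjusted p = 0.117). Plk1, among the 5, stayed called in 3 of the 12 fits without 1 library. Of 7 genes of kinetochore and spindle 5 rose, including the motors Kif11 at 0.22 and Cenpe at 0.17, and without 1 library Cenpe was called in 3 of 12 fits and Nusap1 in 5 of 12. Cenpf, a protein of the outer kinetochore, was at 0.15 ± 0.068 (edgeR adjusted p = 0.101) and Kif2c, which takes microtubules apart, at 0.17 ± 0.067 (adjusted p = 0.0612).

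Of the 2 genes of the anaphase-promoting complex 1 passed. Cdc20, its activator, rose at 0.16 ± 0.045 (edgeR adjusted p = 0.0190). Ube2c, its ubiquitin-conjugating enzyme, was at 0.0048 ± 0.028 (edgeR adjusted p = 0.902), although its promoter holds the CCAAT and CHR letters shown above. The difference between the 2 slopes was not tested. Ube2c shares 22.8% of its exon bases with Tnnc2, a gene of fast skeletal muscle, on the other strand, and muscle genes summed to 14411 to 43594 CPM at 5 mg/kg and 15149 to 69685 CPM at 1 mg/kg. The part of muscle RNA in the level of Ube2c was not tested. Kif20a shares 29.3% of its exon bases with Cdc23, and 8 other genes of the 34 share between 1.35% and 12.6% with neighbours.

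**Figure D3:**
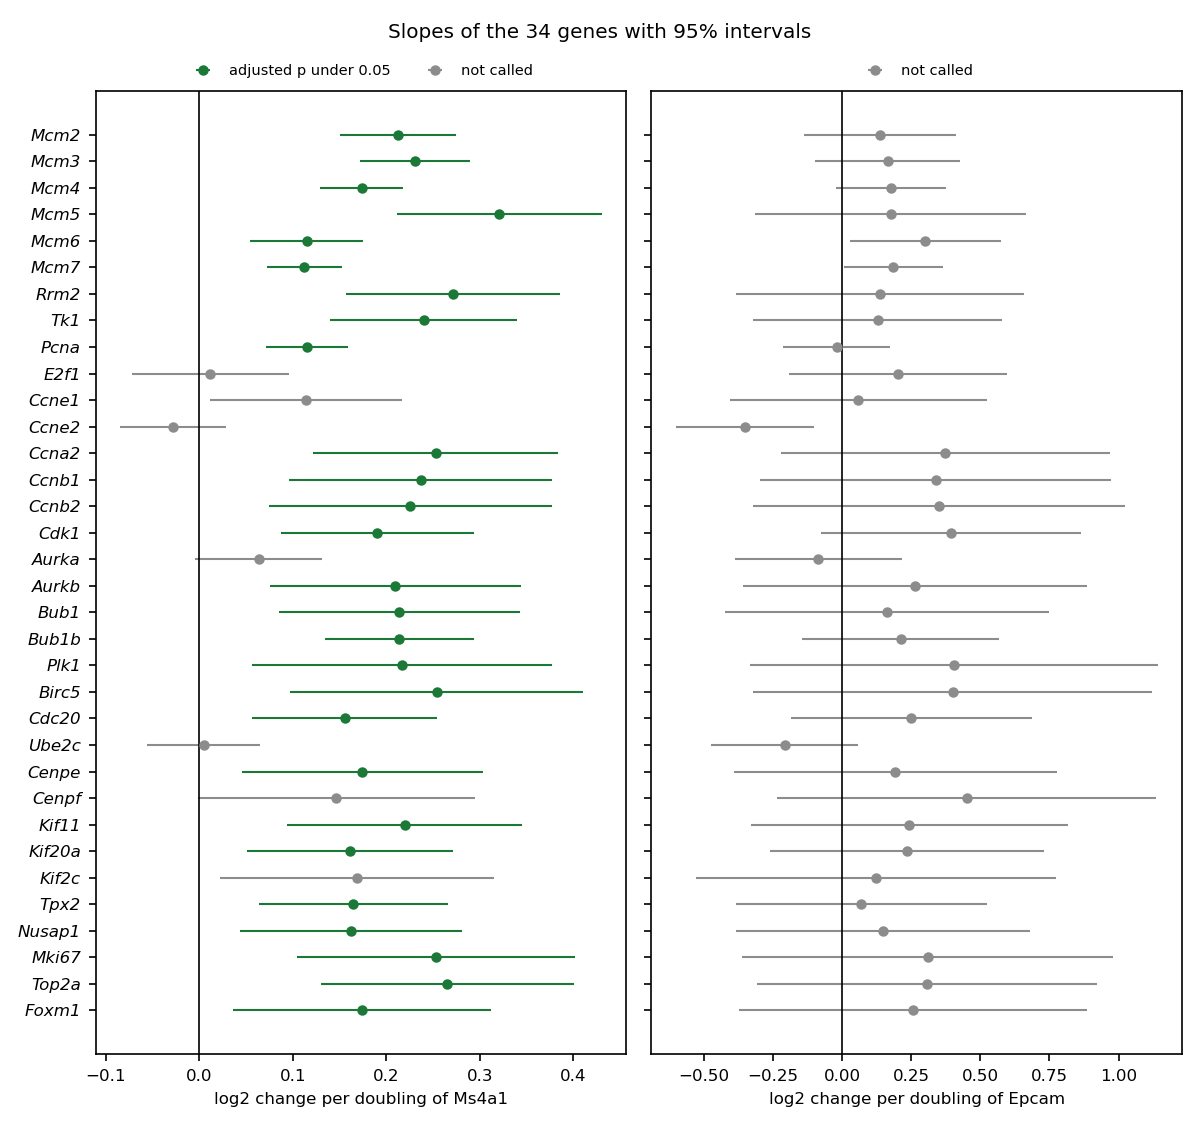
Slope of each gene (rows) with Ms4a1 on the left and with Epcam on the right, as log2 change per doubling of the marker, with 95% intervals. Green marks an adjusted p under 0.05, which 27 of 34 genes reached for Ms4a1 and 0 of 34 for Epcam.

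The number of calls rested in part on single libraries. Without replicate 5 at 5 mg/kg, 9 of the 34 genes were called higher with Ms4a1, 8 of S phase and 1 of mitosis, against 12.8% of all genes. They were Mcm2, Mcm3, Mcm4, Mcm5, Mcm7, Rrm2, Tk1, Pcna and Bub1b, and these 9 were called in each of the 12 fits without 1 library. That library had the lowest TMM factor, the most reads from mitochondrial rRNA genes (59.5%) and, with replicate 4 at 5 mg/kg, the most brown fat RNA, and the part of these in the result was not tested. Without replicates 4 and 5 at 5 mg/kg, an alternative added after seeing the data, 7 were called, against 9.85% of all genes, and without replicate 1 at 1 mg/kg 17 were called, against 18.6%. Without replicate 6 at 5 mg/kg 29 were called, against 28.6% of all genes. Within the 7 libraries with 5 CPM of Ms4a1 or more, 28 were called and the median slope was 0.37, against 16.1% of all genes called higher. With dose left out there, also added after seeing the data, 24 were called, and 2563 of 19241 genes were called higher. These are few libraries for a fit with dose and both markers. Replicate 3 at 1 mg/kg lay apart among them, at 17.7 CPM of Ms4a1 against 49.0 to 152 CPM. Its part in these slopes was not tested. Mcm2, Mcm3, Mcm4, Mcm5, Mcm7, Pcna and Bub1b were called in all 30 alternative fits.

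Replicate 6 at 5 mg/kg stood apart from the other libraries with little Ms4a1. It held the least Ms4a1 of all 12, 0.482 CPM, yet its Mki67 was 34.4 CPM, against 7.40 to 16.9 CPM in the other 4 libraries under 5 CPM of Ms4a1. Of these 5 libraries it was the highest for 27 of the 34 genes, while it was the highest for 30% of all genes tested. Over the mean of the other 4, the median ratio was 2.59 for the mitotic genes and 1.31 for the S phase genes. Plk1, a kinase of mitosis, was at 1.43 CPM there against 0.177 to 0.765 CPM in the other 4, and Foxm1 at 2.30 CPM against 0.443 to 1.06 CPM. E2f1 and Cenpf were higher in this library than in any other of the 12, at 3.11 and 8.78 CPM, and these were 2 of the 34 genes, while the library was the highest of the 12 for 10.7% of all genes. Pcna was lower than in any other, at 11.4 CPM.

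These values are a description of 1 library chosen after its values were seen, and no test was made of it. It reached or passed the lowest of the 6 libraries with the most Ms4a1 for 18 of the 34 genes, and their median for 2. The same counts were not made over all genes, so they do not set the 34 apart. Its T cell genes summed to 12.2 CPM, against 4.63 to 6.35 CPM in the other 4, and its luminal genes to 513 CPM, against 168 to 748 CPM. Its B cell genes summed to 5.35 CPM, against 4.06 to 9.61 CPM in the other 4, and to 363 to 887 CPM in the 6 with the most Ms4a1. Its brown fat genes summed to 29.1 CPM, the least of all 12 libraries. It also differed from the other 4 in its reads, with a TMM factor of 1.22 against 0.60 to 1.01, 41.9% of gene reads from mitochondrial rRNA genes against 47.4% to 59.5%, and 20.8% of reads outside genes against 5.58% to 14.1%. In the 6 with the most Ms4a1 these were 0.94 to 1.33, 39.2% to 51.5% and 11.6% to 26.6%, ranges that include its values. The part of these in the levels was not tested. Cd79a, which carries the B cell receptor's signal, was at 0.280 CPM. Ighm, the heavy chain of immunoglobulin M, was at 34.7 CPM in this library, against 17.1 to 24.6 CPM in the other 4. Its plasma cell genes summed to 110 CPM, against 78.0 to 107 CPM in the other 4.

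Counted by order, all 6 libraries with the most Ms4a1 lay above the other 6 for 16 of the 34 genes, and this was so for 15.8% of all genes.

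**Figure D4:**
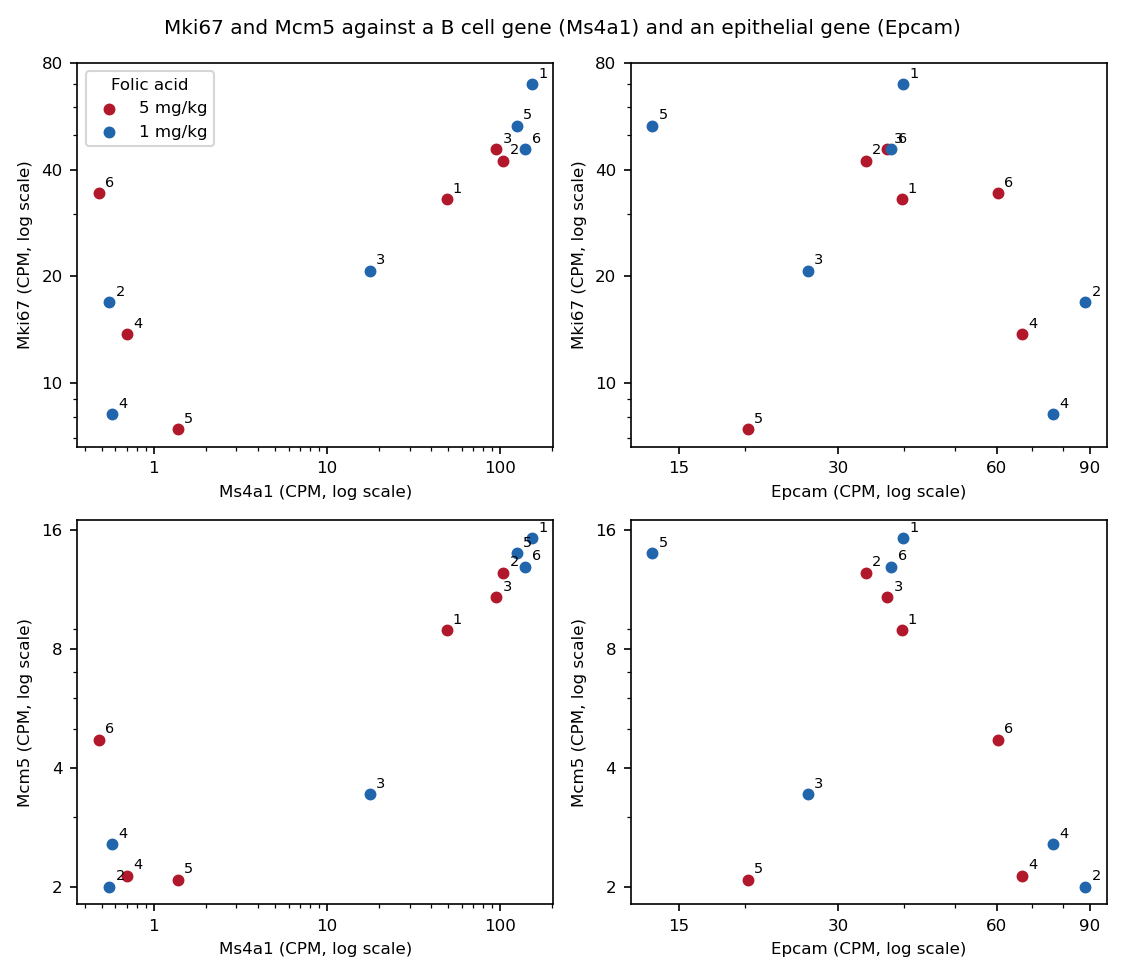
Mki67 (top) and Mcm5 (bottom) against Ms4a1 (left) and Epcam (right) in each library, all in CPM on log scales, with 5 mg/kg in red and 1 mg/kg in blue and replicate numbers beside the points. Replicate 6 at 5 mg/kg lies at 34.4 CPM of Mki67 with 0.482 CPM of Ms4a1.

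With epithelial content no gene of the 34 was called. By edgeR's quasi-likelihood test 0 of 34 slopes with Epcam passed, against 2.58% of all genes in either direction, and at an unadjusted p under 0.05 there were 3 of 34, against 21.6%. The slope was positive in 30 of the 34 and in 58.5% of all genes, with a median of 0.20, against 0.047 over all genes. The median was -0.074 without replicate 5 at 5 mg/kg and 0.56 without replicate 5 at 1 mg/kg. With Ms4a1 left out of the fit, the slope was negative in 32 of the 34, with a median of -0.33, against -0.0094 over all genes. Within the 7 libraries with 5 CPM of Ms4a1 or more it was negative in 21 of the 34, with a median of -0.045. Ccne2 had the smallest p and a negative slope, -0.35 ± 0.11 (edgeR adjusted p = 0.117). Mcm6 was at 0.30 ± 0.13 (edgeR adjusted p = 0.196), with 9.83, 19.2 and 21.6 CPM at 5 mg/kg against 12.6, 20.4 and 25.9 CPM at 1 mg/kg. Mki67 was at 0.31 ± 0.31 (edgeR adjusted p = 0.560), with an interval from -0.36 to 0.98. Epcam ranged far less than Ms4a1, and the median interval of its slopes reached 0.49 to either side, against 0.11 for the slopes with Ms4a1. Scaling by library size alone, which moved the median slope of all genes to 0.30, called 26 of the 34 and 55.2% of all genes higher with Epcam.

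With both markers in the model, dose was again called for none of the 34 genes. By edgeR 0 of 34 passed, and 0% of 18645 genes, while at an unadjusted p under 0.05 there were 0 of 34 and 4.54% of all. The log2 fold change was positive in 29 of the 34 and in 51.8% of all genes, with a median of 0.14, and the median interval reached 0.60 to either side. Without 1 library the median ran from -0.057, without replicate 6 at 5 mg/kg, to 0.33, without replicate 5 at 1 mg/kg. It was also moved by over 1.5 times without replicate 1 (0.22) or 5 (0.29) at 5 mg/kg and without replicate 1 (0.21), 3 (0.081) or 4 (0.033) at 1 mg/kg. Tk1 had the smallest p, with a log2 fold change of 0.39 ± 0.26 (edgeR unadjusted p = 0.158, adjusted p = 0.906). It ran from 0.797 through 1.82 to 3.22 CPM at 5 mg/kg, against 0.531, 1.76 and 3.11 CPM at 1 mg/kg. Aurkb, the kinase that corrects chromosome attachment, was at 0.51 ± 0.34 (edgeR unadjusted p = 0.161, adjusted p = 0.906), with 0.354, 1.40 and 1.72 CPM at 5 mg/kg against 0.370, 1.04 and 2.05 CPM at 1 mg/kg. For both genes the groups overlapped over most of their range.

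**Figure D5:**
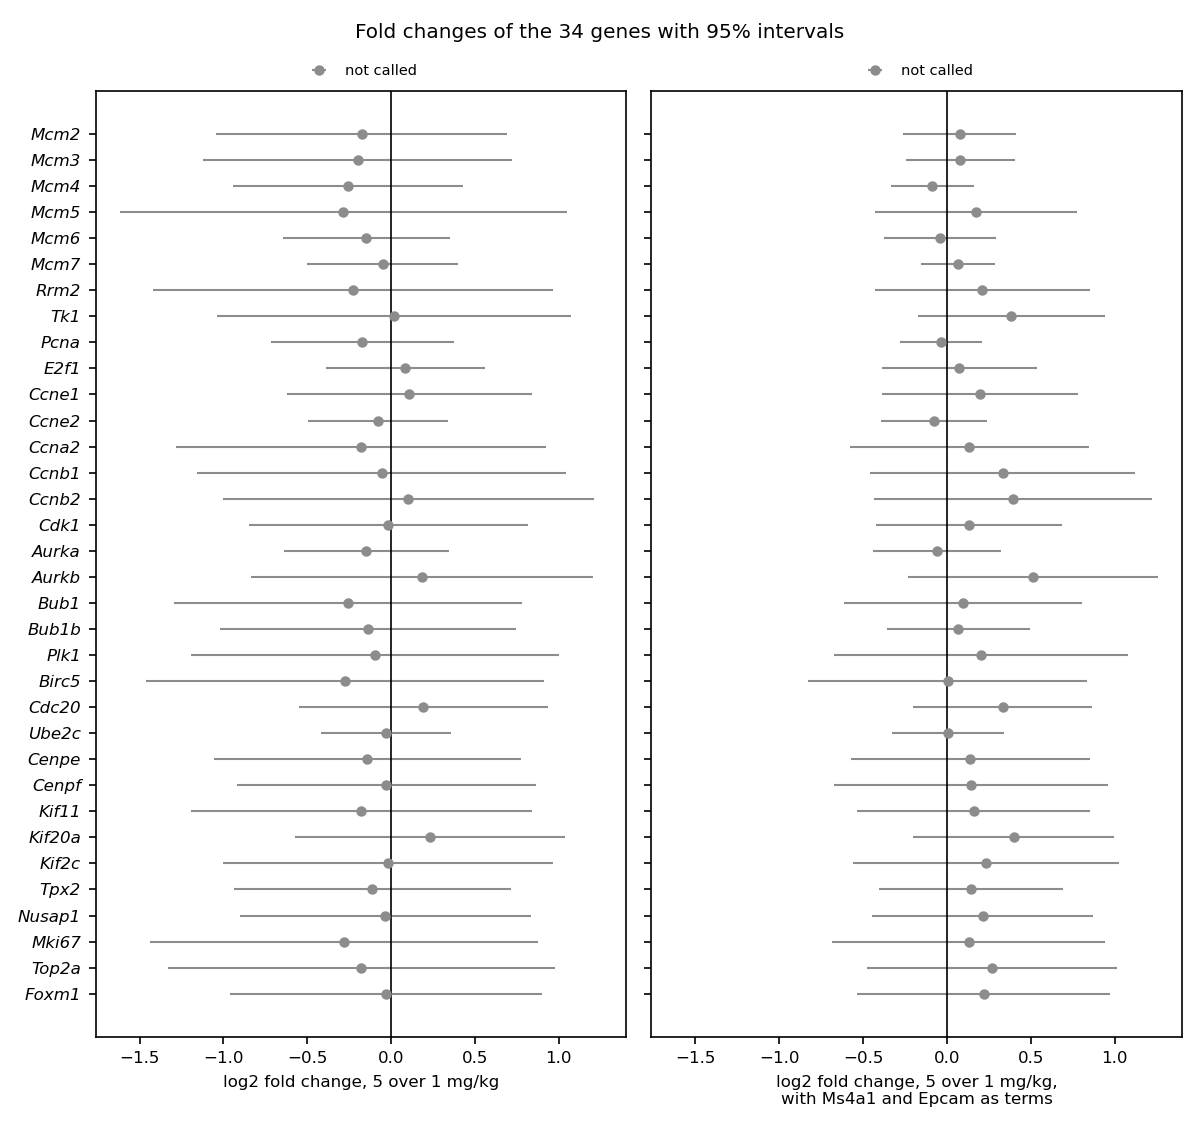
Log2 fold change of each gene (rows), 5 mg/kg over 1 mg/kg, without covariates on the left and with Ms4a1 and Epcam as terms on the right, with 95% intervals. All intervals in both panels include 0, and the median was -0.10 on the left and 0.14 on the right.

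Other genes of the same machinery were set beside the 34, and their counts stand against the 23.3% of all genes called higher with Ms4a1 and the 18.1% called lower. Of 30 further genes of replication and licensing 20 rose with Ms4a1 and 0 fell, among them Pold1, the catalytic subunit of polymerase delta, with a slope of 0.25 ± 0.028 (edgeR adjusted p = 4.16e-05), and Fen1, which trims Okazaki fragments, at 0.18 ± 0.026 (adjusted p = 0.000285). Of 37 genes of mitosis and kinetochore 32 rose, with Smc4, a condensin subunit, at 0.27 ± 0.031 (edgeR adjusted p = 5.19e-05), and 1 fell, Pttg1, the securin that restrains separase, at -0.11 ± 0.032 (adjusted p = 0.0223). Of 10 genes of D cyclins and G1 kinases 8 rose, and Ccnd1, the cyclin that answers growth signals, was at 0.11 ± 0.025 (edgeR adjusted p = 0.00616).

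Of 17 genes of the E2F family and the DREAM complex 7 rose with Ms4a1 and 3 fell, against 23.3% of all genes higher and 18.1% lower. E2f2 was at 0.29 ± 0.033 (edgeR adjusted p = 4.38e-05). The difference between E2f1 and E2f2 was not tested. Of 12 inhibitors tested 3 rose and 3 fell, which is near the shares of all genes, with Btg1, an antiproliferative gene abundant in resting lymphocytes, at 0.24 ± 0.031 (edgeR adjusted p = 0.000132), and Cdkn1c, the inhibitor p57, at -0.12 ± 0.034 (adjusted p = 0.0155). With Epcam only Ccnd1 passed among the 106 tested genes of these 5 lists, at 0.61 ± 0.12 (edgeR adjusted p = 0.0160), while 2.58% of all genes passed with Epcam. With dose 0 genes of these lists passed in either fit.

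Cell type lists gave the scale of the slopes. All 9 tested B cell genes rose with Ms4a1, with a median slope of 0.96, and so did all 10 T cell genes, with a median of 0.77. Genes of germinal centres, where B cells divide, did so in 1 of 7 cases, against 23.3% of all genes, Gcsam at 0.33 ± 0.049 (edgeR adjusted p = 0.000427), with a median of 0.054. All 11 luminal genes rose with Epcam, itself a luminal gene, with a median of 1.01, and 0 with Ms4a1. With Epcam 3 of 8 basal genes and 5 of 10 genes of hormone response and alveoli rose, against 2.58% of all genes called in either direction. With Ms4a1, 1 of the 8 basal genes fell, and of those 10 genes 1 rose and 1 fell. Genes of other tissues fell where Ms4a1 was higher, with 5 of 6 adipocyte genes, 4 of 6 genes of skeletal muscle and 3 of 6 endothelial genes, against 18.1% of all genes, and 1 endothelial gene rose. Of the macrophage genes 2 of 7 rose and 1 fell, of the plasma cell genes 2 of 5 rose, and of the brown fat genes 0 of 6 were called. The part of these tissues in the slopes of the 34 genes was not tested.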

How the data were processed

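RNA of 12 whole mammary fat pads was measured by RNA-seq (6 libraries at 5 mg/kg and 6 at 1 mg/kg folic acid). Per the labels' protocols the library kit was TruSeq RNA Sample Prep v2, which does not mark strand. The values the authors deposited are raw counts of reads by gene. The tools were STAR and HTSeq 0.6.1 with build mm10, per the submitters' processing notes. For the annotation and the strand setting, nothing is given in the sources used here. Every file held 55487 gene IDs, of which 55141 had a symbol, and 5 tally lines with 16.7% to 35.7% of reads, which were left out of library sizes and tests. Reads aligned to several places made up 8.30% to 10.5%, so genes with close copies lose reads. Exon lengths and overlaps came from the vM21 release of GENCODE on GRCm38, of which mm10 is another name, and promoters from RefSeq on GRCm38.p6.

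Counts were tested with edgeR 4.0.16 in R 4.3.3 (filterByExpr by group, TMM, robust quasi-likelihood F test), with Benjamini-Hochberg adjustment over all genes and a threshold of 0.05. One fit held dose alone and the other dose with centred log2 CPM of Ms4a1 and Epcam (prior count 2), the 2 markers being taken out of the genes tested. Standard errors were derived from the estimate and its F statistic. The fits were tested on simulated data. No pair of libraries within a group agreed within sampling noise, the lowest of 30 chi-square values per degree of freedom being 41.7. The alternatives were DESeq2 1.42.0, other scalings, filters, thresholds, markers and covariates, and fits without single libraries. The genes to be named in full were 11 of the 34 and, for each test, the 2 with the smallest p. Further genes of the 34 were named by role after their values were seen. Of each list beside the 34, genes with the smallest p were named, and Pttg1 and Cdkn1c as examples that fell. The 34 genes, the lists and the tests were chosen with earlier results of these data known.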

Additional observations from a re-analysis of the deposited data

How the results depend on the processing

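In both fits dose called 0 genes and 0 of the 34 under each alternative run, and these counts did not change without any single library. No paired analysis was possible because the labels give no replicate numbers that tie libraries of the 2 groups together. Without 1 library, 3439 to 9955 genes and 9 to 29 of the 34 were called with Ms4a1. Without replicates 4 and 5 at 5 mg/kg (added after seeing the data), 2421 genes and 7 of the 34 were called with Ms4a1, 78.7% of those genes higher against 56.4% in the full fit, and 47 genes with Epcam. In libraries with 5 CPM of Ms4a1 or more and dose left out (also added afterwards), 4407 genes and 24 of the 34 were called with Ms4a1, and 270 genes with Epcam.

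Genes called with Epcam, 481 in the full fit, were 1182 at an adjusted p under 0.10, 10635 with library size alone (26 of the 34), 1668 with DESeq2 (1 of the 34, Ccne2, lower), 906 with Cd3e in place of Ms4a1, 68 with Krt8 and 1121 with Cdh1 in place of Epcam, 868 with Ms4a1 left out, and 30 without the 2 libraries farthest from the median of Epcam. Without 1 library they were 65 to 1387, with 0 of the 34.

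Directions also turned for values that did not pass. The dose log2 fold change of Mki67 was -0.48 to 0.024 without 1 library, the highest without replicate 1 at 1 mg/kg, and 0.17 without replicates 4 and 5 at 5 mg/kg, and that of Mcm4 was 0.038 there. With both markers in the fit, Mki67 was at -0.23 without replicate 6 at 5 mg/kg and -0.12 without replicate 4 at 1 mg/kg, up to 0.38 without 1 library, and -0.14 with Ms4a1 left out. The Ms4a1 slope of E2f1 was -0.041 without replicate 5 at 5 mg/kg, up to 0.048 without 1 library, -0.015 with Epcam left out and -0.061 without replicates 4 and 5 at 5 mg/kg. That of Ccne2 was 0.064 with library size alone, where it passed (edgeR adjusted p = 0.0412), and 0.017 with Epcam left out. That of Ube2c was -0.00089 with DESeq2 size factors, -3.5e-05 with upper quartile scaling, -0.0042 without mitochondrial genes, -0.00033 with DESeq2, -0.074 in libraries with 5 CPM of Ms4a1 or more with and without dose, and -0.019 without replicates 4 and 5 at 5 mg/kg, and it ranged from -0.024 to 0.021 without 1 library. The Epcam slope of Mcm6 was -0.026 with Ms4a1 left out. That of Mki67 was -0.098 without replicate 5 at 5 mg/kg, up to 0.81 without 1 library, -0.47 with Ms4a1 left out, -0.0039 in libraries with 5 CPM of Ms4a1 or more, -0.034 there with dose left out, and -0.13 without replicates 4 and 5 at 5 mg/kg. The cause of these changes was not tested. The median dose log2 fold change of all genes was -0.16 with library size alone. Genes of few reads, such as Birc5 and Plk1, limit what the 12 libraries can show.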

Other observations

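Genes other than the 34 were ranked by how closely their levels followed the mean of the 34 over the 12 libraries, after the terms for dose, Ms4a1 and Epcam were taken out. Among 14036 genes with a mean of at least 1 CPM, the highest Pearson's r was 0.98 for Knl1, a scaffold of the kinetochore, and 0.98 for Hist1h1a, a linker histone gene made in S phase. Dlgap5, Rad54l, Kif14, Ncapg and Spdl1 came next, and Ighm, the heavy chain of immunoglobulin M, was the eighth with r = 0.96. These are descriptions over 12 libraries that share the model's terms and their scaling. After those terms, replicate 6 at 5 mg/kg lay from -0.18 log2 for Ccne2 to 1.45 log2 for Birc5 off the fit, with Mki67 at 1.39. The part of this 1 library in the values of r was not tested. Ighm was at 23.7 to 376 CPM at 5 mg/kg and 17.1 to 488 CPM at 1 mg/kg.

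Of the 106 tested genes of the pathway lists, 63 were higher in replicate 6 at 5 mg/kg than in the other 4 libraries with little Ms4a1, which is 59.4%, against 30% of all genes. It was the highest of all 12 libraries for 4 of the 106, or 3.77%, against 10.7% of all genes. A pair of the 4, chosen after their values were seen, were E2f7, a repressor that acts late in S phase, and Ccnd2, a D cyclin. E2f7 was at 4.13 CPM there, against 1.2 to 1.92 CPM in the other 5 libraries at 5 mg/kg and 1.29 to 2.62 CPM at 1 mg/kg. Ccnd2 was at 183 CPM there, with 99.8 to 126 CPM in the other 5 libraries at 5 mg/kg and 74.7 to 156 CPM at 1 mg/kg.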
